A study of Mus musculus with 48 samples.

Results

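The atypical chemokine receptors are a small family of membrane receptors that bind chemokines without the usual G protein signalling. Their 5 members with a row in the expression matrix, Ackr1, Ackr2, Ackr3, Ackr4 and Ccrl2, were chosen by name and function, with earlier results of these data known, from the 54752 genes listed. They were followed by RNA-seq in cardiomyocytes, in heart blood endothelial cells (BECs), and in lymphatic endothelial cells (LECs) sorted from heart and from diaphragm. Because the choice was made with results in view, the levels across cell populations are given as a description without a test.

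These receptors remove, carry or present chemokines and so shape chemokine gradients in tissue. Ackr3 takes up Cxcl12, Cxcl11 and the peptide adrenomedullin (Adm). Ackr2 degrades inflammatory CC chemokines, is a known product of lymphatic endothelium, and is thought to keep inflammatory chemokines off the lymphatic surface. Ackr4 takes up Ccl19, Ccl21 and Ccl25, the chemokines that guide Ccr7- and Ccr9-bearing leukocytes. Ackr1 binds inflammatory CC and CXC chemokines on venular endothelium and red cells. Ccrl2 binds chemerin (Rarres2) and presents it to cells that carry the signalling receptor Cmklr1.

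All mice were Prox1-eGFP knock-ins on C57BL/6 (C57BL/6J in the study's methods), with an IRES-eGFP cassette in the 3′ untranslated region of Prox1, a transcription factor of lymphatic identity, and were 8 to 16 months old by their labels. For 5 to 6 weeks the ctrl mice received the albumin vehicle by minipump, the angII mice angiotensin II, which raises blood pressure and stresses the heart, and the angII+VEGFC mice angiotensin II together with VEGFCc156s, a form of VEGFC selective for the receptor VEGFR3 (Flt4) of LECs. Each population had 12 libraries, 4 ctrl, 5 angII and 3 angII+VEGFC, each from a mouse with its own number, and the same mice gave heart LECs, heart BECs and cardiomyocytes. The diaphragm LEC libraries shared 11 of these 12 mice. Endothelial cells were sorted as live CD45.2-, CD31+ cells with eGFP (LECs) or without it (BECs), whereas the cardiomyocytes were a pellet of low-speed centrifugation that was not sorted. The endothelial libraries were sequenced in 2 batches and the cardiomyocyte libraries in another.

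Expression is given as TPM, a share of all transcripts that is scaled for transcript length, so levels of different genes can be set side by side. Since TPM keeps no read count, sequencing depth is unknown. Heart LEC libraries held 16131 to 25896 genes with at least 1 TPM, those of diaphragm LECs 12924 to 23691, those of heart BECs 15076 to 21913 and those of cardiomyocytes 13020 to 19306. Prox1 was at 97.6 to 230 TPM in heart LECs, 175 to 315 in diaphragm LECs, 1.06 to 5.72 in heart BECs and 0.867 to 6.18 in cardiomyocytes. Myh6, the cardiac myosin heavy chain, was at 1004 to 3914 TPM in cardiomyocytes and 3.17 to 17.1 in heart BECs. The cardiomyocyte pellet also held transcripts of other cells: 8 leukocyte markers summed to 511 to 1687 TPM there, against 23.4 to 78.4 in heart BECs, and 6 blood endothelial markers summed to 1039 to 1734 TPM, against 6077 to 10853 in heart BECs. In such bulk samples, fewer cells of a type and less RNA per cell cannot be told apart.

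Ackr3 (ENSMUSG00000044337; GRCm38 chromosome 1, 90203980 to 90216751, plus strand) was the most abundant of the 5 receptors in the median library of every population. In diaphragm LECs it ranged from 194 to 675 TPM (median 496), in heart LECs from 188 to 428 (median 295), in heart BECs from 188 to 378 (median 259) and in cardiomyocytes from 43.0 to 78.5 (median 57.9). The cardiomyocyte range lay below that of each endothelial population, while the endothelial ranges overlapped. Within the same mouse, diaphragm LECs were above heart LECs in 11 of 11 mice, by 0.80 ± 0.30 (SD) on the log2(TPM + 1) scale. Heart LECs were above heart BECs in 8 of 12 mice, with a mean difference of 0.22 ± 0.47 (SD), which is smaller than its spread. Ackr3 was thus abundant in lymphatic and blood endothelium alike. Its level in cardiomyocytes was 22.3% of that in heart BECs by the medians, while the 6 blood endothelial markers stood at 11.5% to 17.4%; the part of endothelial cells in the cardiomyocyte value was not tested.

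Ackr2 (ENSMUSG00000044534; chromosome 9, 121898355 to 121911074, plus strand) separated the lymphatic from the blood endothelium. It ranged from 162 to 319 TPM in diaphragm LECs (median 269), from 83.0 to 174 in heart LECs (median 134), from 5.75 to 15.5 in heart BECs (median 9.48) and from 1.75 to 8.33 in cardiomyocytes (median 4.30). The lowest LEC library was above the highest BEC library. Heart LECs exceeded heart BECs in 12 of 12 mice by 3.68 ± 0.42 (SD, log2 scale), and diaphragm LECs exceeded heart LECs in 11 of 11 mice by 1.00 ± 0.33. The Ackr2 level of heart BECs was 7.06% of that of heart LECs by the medians. The 6 lymphatic markers in heart BECs stood at between 0.588% (Mmrn1, a secreted lymphatic matrix protein) and 11.6% (Flt4, the VEGFC receptor) of their heart LEC level, with Prox1 at 1.59% and Lyve1, the hyaluronan receptor of lymphatic capillaries, at 2.93%. The share of LECs in the BEC value was not tested.

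Ackr4 (ENSMUSG00000079355; chromosome 9, 104084157 to 104126933, minus strand) was highest in heart LECs, at 12.6 to 71.3 TPM (median 41.4). It was at 10.1 to 33.0 TPM in diaphragm LECs (median 16.0), 5.33 to 16.2 in cardiomyocytes (median 9.66) and 3.51 to 15.7 in heart BECs (median 8.18), and neighbours in this order overlapped. Unlike Ackr2 and Ackr3, it was lower in diaphragm LECs than in heart LECs, in 10 of 11 mice and by 0.93 ± 0.63 (SD, log2 scale). Heart LECs were above heart BECs in 11 of 12 mice, by 1.98 ± 1.19. The gene lies within Acad11, a mitochondrial acyl-CoA dehydrogenase gene on the opposite strand, and 8.90% of its exonic bases are shared with Acad11 exons. The library kit does not mark strand, so reads from the shared bases cannot be assigned to either gene. Acad11 varied less between populations than Ackr4. Its medians were 11.1 and 9.13 TPM in heart and diaphragm LECs, 8.72 TPM in BECs and 9.62 TPM in cardiomyocytes. The 6 fibroblast markers summed to 660 to 1499 TPM in heart LECs and 113 to 890 in diaphragm LECs. They summed to 395 to 3683 TPM in heart BECs and 2114 to 4114 in cardiomyocytes. The part of other cells in the Ackr4 levels was not tested.

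Ccrl2 (ENSMUSG00000043953; chromosome 9, 111054486 to 111057519, minus strand) had the reverse distribution, with the higher levels outside the lymphatic cells. It ranged from 28.2 to 59.7 TPM in heart BECs (median 38.6), from 27.5 to 58.6 in cardiomyocytes (median 37.0) and from 6.71 to 24.8 in diaphragm LECs (median 11.8). In heart LECs the median was 13.8 TPM, the highest library was at 35.3 and 1 library was listed at 0. On the log2(TPM + 1) scale, heart BECs and cardiomyocytes did not differ beyond their spread. The mean paired difference was -0.05 ± 0.58 (SD, cardiomyocytes minus BECs). This did not hold after quantile normalization, where the difference turned positive and exceeded that spread. Heart BECs were above heart LECs in 11 of 12 mice, and cardiomyocytes above heart LECs in 12 of 12. Within the cardiomyocyte pellet the Ccrl2 level was 95.9% of that in BECs, while blood endothelial markers stood at 11.5% to 17.4%. The pellet also held the leukocyte markers given above, and the part of other cells in its Ccrl2 was not tested.

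Ackr1 (ENSMUSG00000037872; chromosome 1, 173331886 to 173333750, minus strand) was the rarest member. Its median was 5.37 TPM in heart BECs, where it ranged from 1.35 to 9.61, and 1.25 TPM in cardiomyocytes, where it ranged from 0.0547 to 2.24. In heart LECs it was listed at 0 in 6 of 12 libraries, and the others were at 0.201, 1.64, 3.40, 3.86, 5.05 and 6.14 TPM. In diaphragm LECs 3 of 12 libraries were listed at 0 and the highest, of ctrl mouse 9, was at 55.4 TPM, with the next at 18.9. Heart BECs exceeded cardiomyocytes in 11 of 12 mice and heart LECs in 9 of 12. The gene shares 25.7% of its exonic bases with Cadm3, a cell adhesion gene on the same strand, which was at no more than 0.966 TPM in any heart BEC library. The markers of venous endothelium (Vwf, Selp, Sele, Vcam1, Nr2f2 and Aplnr), where Ackr1 is known to be made, summed to 813 to 1289 TPM in heart BECs, 198 to 577 in heart LECs, 126 to 301 in diaphragm LECs and 126 to 263 in cardiomyocytes. Nr2f2 ran against this order. Its group means were 43.1 to 53.7 TPM in heart LECs, 71.3 to 87.8 in diaphragm LECs and 10.6 to 14.2 in heart BECs.

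**Figure D1:**
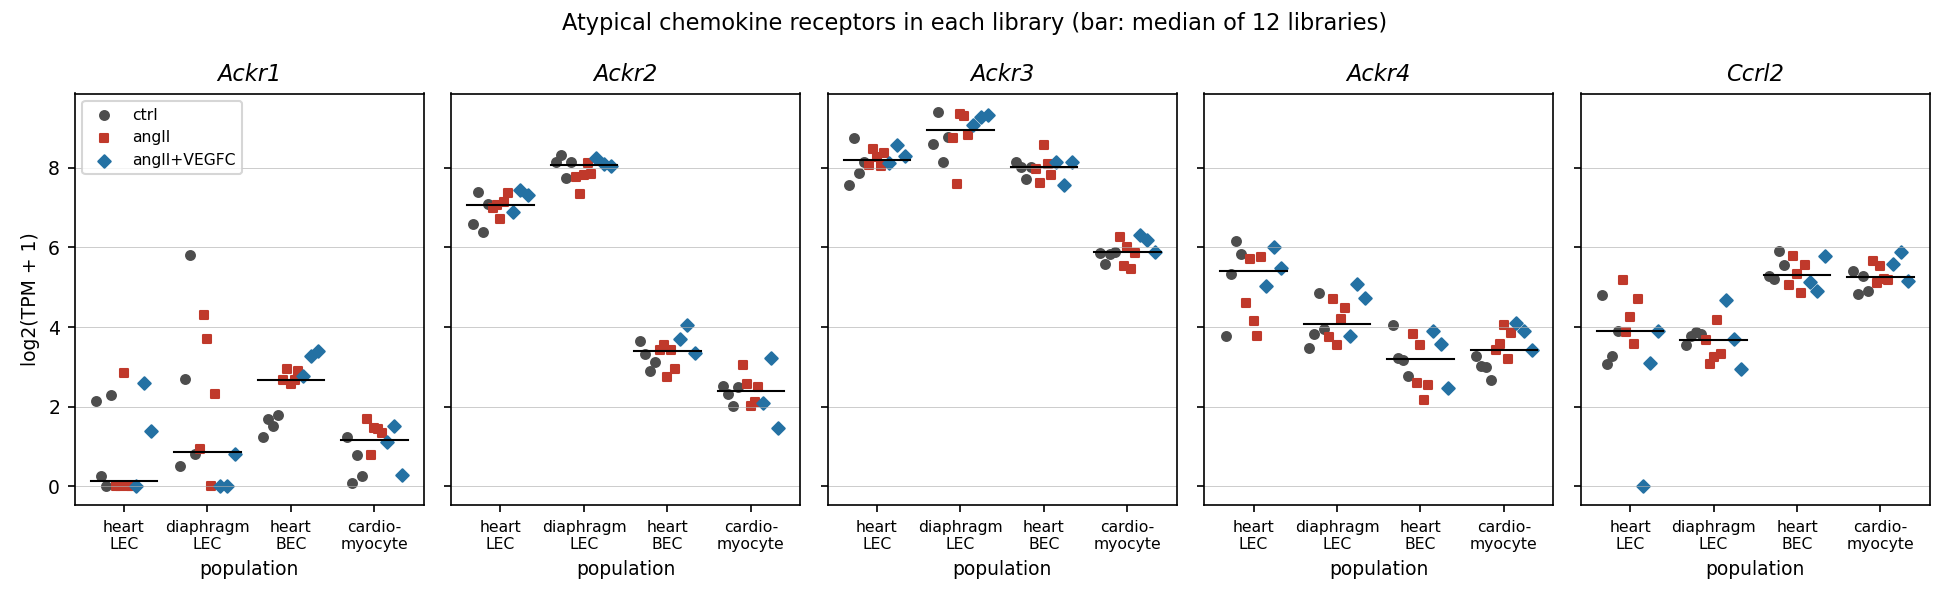
Level of each receptor in each of the 48 libraries, as log2(TPM + 1), by population along the x axis and by treatment in colour and shape, with a bar at the median of 12 libraries. Ackr2 falls from medians of 269 and 134 TPM in LECs to 9.48 in heart BECs, Ackr3 is high in all 3 endothelial populations, and Ackr1 is at or near 0 in most LEC libraries.

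The receptors also differed in the mix they made up in each population. Their summed level was highest in diaphragm LECs (median 813 TPM, 407 to 1026) and lowest in cardiomyocytes (median 109 TPM, 85.6 to 154), with heart LECs at 472 (325 to 644) and heart BECs at 318 (253 to 439). Ackr3 made up a median of 80.6% of this sum in heart BECs, 63.6% in diaphragm LECs, 59.7% in heart LECs and 51.9% in cardiomyocytes. Ackr2 supplied 27.6% in heart LECs and 32.2% in diaphragm LECs, but 2.95% in heart BECs and 4.17% in cardiomyocytes. Ccrl2 supplied 34.6% in cardiomyocytes and 11.5% in heart BECs, against 2.58% in heart LECs and 1.65% in diaphragm LECs. Ackr4 reached a median share of 7.78% in heart LECs and 1.90% in diaphragm LECs. Ackr2 was thus second to Ackr3 in both kinds of LECs, and Ccrl2 in BECs and in the cardiomyocyte pellet.

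The ligands of these receptors were followed in the same libraries. Cxcl12, the chemokine taken up by Ackr3, had its highest median in heart BECs (611 TPM, 352 to 808) and was at 118 TPM in cardiomyocytes, 55.0 in heart LECs and 19.4 in diaphragm LECs, where Ackr3 itself was highest. Adm, the other Ackr3 ligand, had medians of 197 and 116 TPM in heart and diaphragm LECs, 103 TPM in BECs and 37.3 TPM in cardiomyocytes. The adrenomedullin receptor is formed by Calcrl and Ramp2, which were abundant in all endothelial cells (Calcrl 215, 254 and 224 TPM, and Ramp2 1053, 941 and 960 TPM, in heart LECs, diaphragm LECs and heart BECs). Ramp3, the other partner of Calcrl, was concentrated in heart BECs at a median of 139 TPM, against 22.8 in heart LECs.

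Ccl21a, the main ligand of Ackr4, was at a median of 19115 TPM in heart LECs and 28382 in diaphragm LECs, against 246 in heart BECs and 115 in cardiomyocytes. It has near-identical copies in the mouse genome, so its level is uncertain to the extent that reads were divided among them. Ccl19 was highest in cardiomyocytes (median 22.8 TPM). Ackr4 was thus highest in a population with abundant Ccl21a, but its lower level in diaphragm than in heart LECs ran against the order of Ccl21a.

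Among the inflammatory CC chemokines that Ackr2 binds, Ccl2 was at medians of 67.4, 84.9, 29.4 and 68.3 TPM and Ccl7 at 62.3, 80.2, 16.3 and 92.8 TPM (in the order heart LECs, diaphragm LECs, heart BECs, cardiomyocytes). Ccl3, Ccl4, Ccl8 and Ccl12 reached medians of 32.8, 65.7, 40.0 and 22.5 TPM in cardiomyocytes, where leukocyte markers were also higher, and no more than 3.20 TPM in any endothelial population. Ccl11, a ligand of the eosinophil receptor Ccr3, was at a median of 11.4 TPM in cardiomyocytes and at most 6.40 elsewhere. The neutrophil chemokines Cxcl1 and Cxcl2, which Ackr1 binds, were higher in heart BECs (296 and 35.7 TPM) and cardiomyocytes (267 and 60.7) than in heart LECs (78.9 and 7.99). Rarres2, the chemerin that Ccrl2 presents, had a median of 152 TPM in cardiomyocytes, 36.2 in heart BECs, 40.5 in diaphragm LECs and 22.1 in heart LECs.

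The signalling receptors for the same chemokines were scarce in all populations. Apart from Calcrl, the other 12 of 13 receptors listed had means under 10 TPM in every population, the highest being Cxcr4, the signalling receptor of Cxcl12, at 5.55 ± 2.08 TPM (SD, n = 12) in heart BECs. The median of Cxcr4 was 0.618 TPM in heart LECs and 0.505 in diaphragm LECs. Ccr7, which signals for Ccl19 and Ccl21, had medians of 0.0407 to 3.10 TPM across the populations, and Cmklr1 of no more than 4.27 (these receptors were named after their values were seen). Of the proteins that carry chemokine receptors into the cell or switch them off, the arrestin Arrb1 was at medians of 33.5 TPM in heart LECs and 41.7 in diaphragm LECs against 12.4 in heart BECs. Arrb2 was at 11.3, 10.3 and 10.7 TPM in the same populations. The kinase Grk2 was higher in heart BECs (20.4 TPM) than in heart LECs (6.98), Grk5 lower (8.23 against 15.4), and Grk6 similar (21.2 against 20.5).

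**Figure D2:**
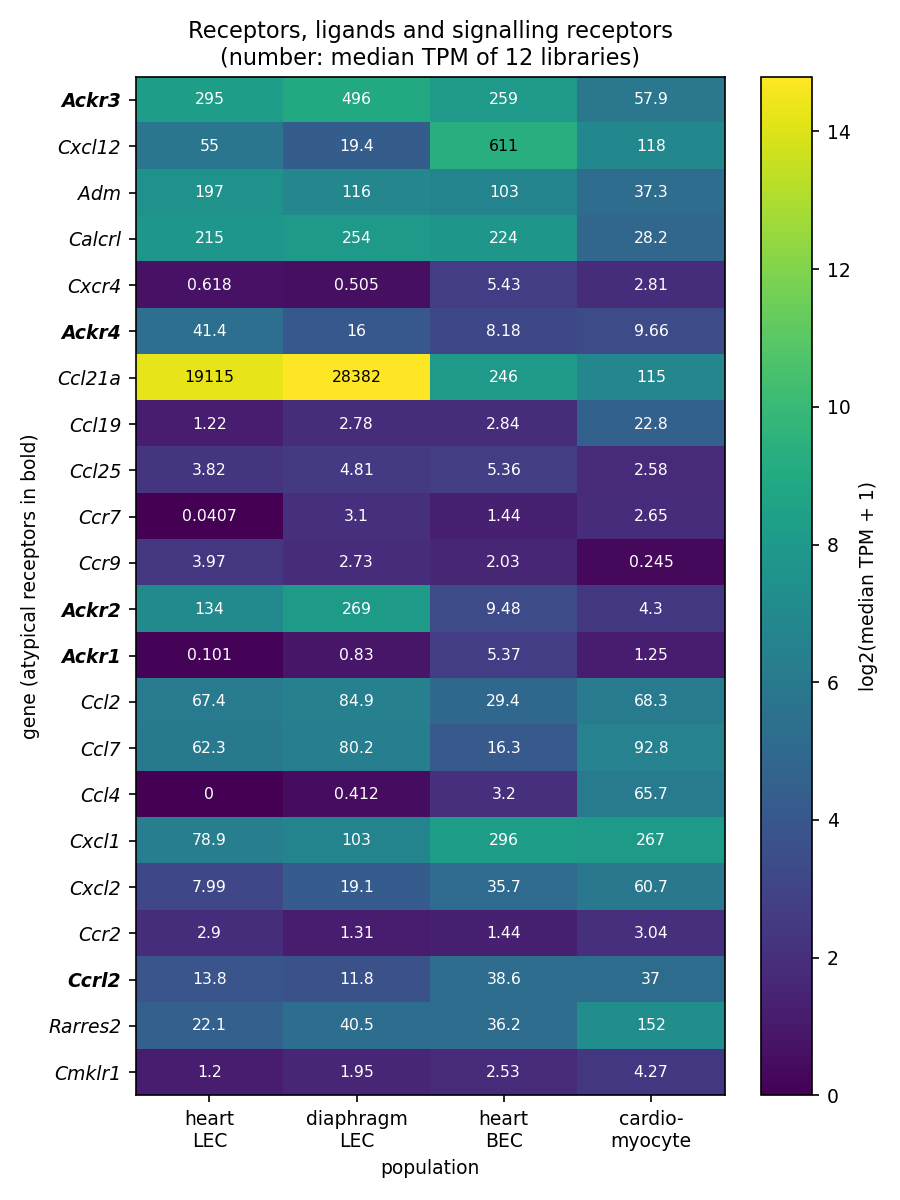
Median level over 12 libraries, as log2(TPM + 1) in colour and as TPM in numbers, of the atypical receptors (bold), their ligands and their signalling receptors, with populations along the x axis. Ackr3 is highest in diaphragm LECs and its ligand Cxcl12 in heart BECs (611 TPM), Ccl21a dominates both LEC populations, and the signalling receptors Cxcr4, Ccr7, Ccr9, Ccr2 and Cmklr1 all stay at or under 5.43 TPM.

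The genes whose pattern over the 48 libraries was most like that of each receptor were sought among 12731 named genes with a mean of 5 TPM or more in at least 1 population, by Pearson's r on log2(TPM + 1). These values describe differences between populations above all, since libraries of 1 population share their sort and preparation. For Ackr2 the closest were Lyve1 (r = 0.99), Clca3a1 (r = 0.99) and Slc45a3 (r = 0.99). All had their highest medians in diaphragm LECs and their next highest in heart LECs, as Ackr2 did. For Ackr3 they were Pald1, Ppp1r2 and Pgm2 (r = 0.97, 0.97 and 0.96), which were highest in diaphragm LECs and lowest in cardiomyocytes. For Ackr4 they were Ptn, Ifi27l2a and Fkbp10 (r = 0.81, 0.80 and 0.80), and for Ccrl2 Arhgef25, Vtn and Il1r1 (r = 0.84, 0.82 and 0.82). Ackr1 had no close counterpart: its best were Zbtb44, Lin37 and Slc46a3 (r = 0.68, 0.63 and 0.63).

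The treatments were compared within each population to ask whether angiotensin II, with or without VEGFCc156s, altered the receptors. The log2(TPM + 1) values of all genes that reached 1 TPM in 3 or more of the 12 libraries were fitted with limma, and p-values were adjusted over all genes. Adding 1 TPM makes the change of low genes smaller than their ratio of TPM. All 5 receptors passed the filter in every population, and 0 of 5 had an adjusted p under 0.05 in any of the 12 comparisons. The share of all tested genes that did was 0.0261% in heart LECs and 0.0892% in cardiomyocytes for angII against ctrl, 0.663% in cardiomyocytes for angII+VEGFC against ctrl, and 0% in the other 9 comparisons. At an unadjusted p under 0.05, 7 of the 60 receptor values passed: Ackr1 in heart BECs and Ccrl2 in heart LECs in 2 comparisons each, Ackr4 in cardiomyocytes in 2, and Ackr1 in cardiomyocytes in 1. Of all genes, 1.32% to 15.3% passed it, depending on the comparison. The other 53 receptor differences lay between -1.71 and 1.04 on the log2 scale.

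**Figure D3:**
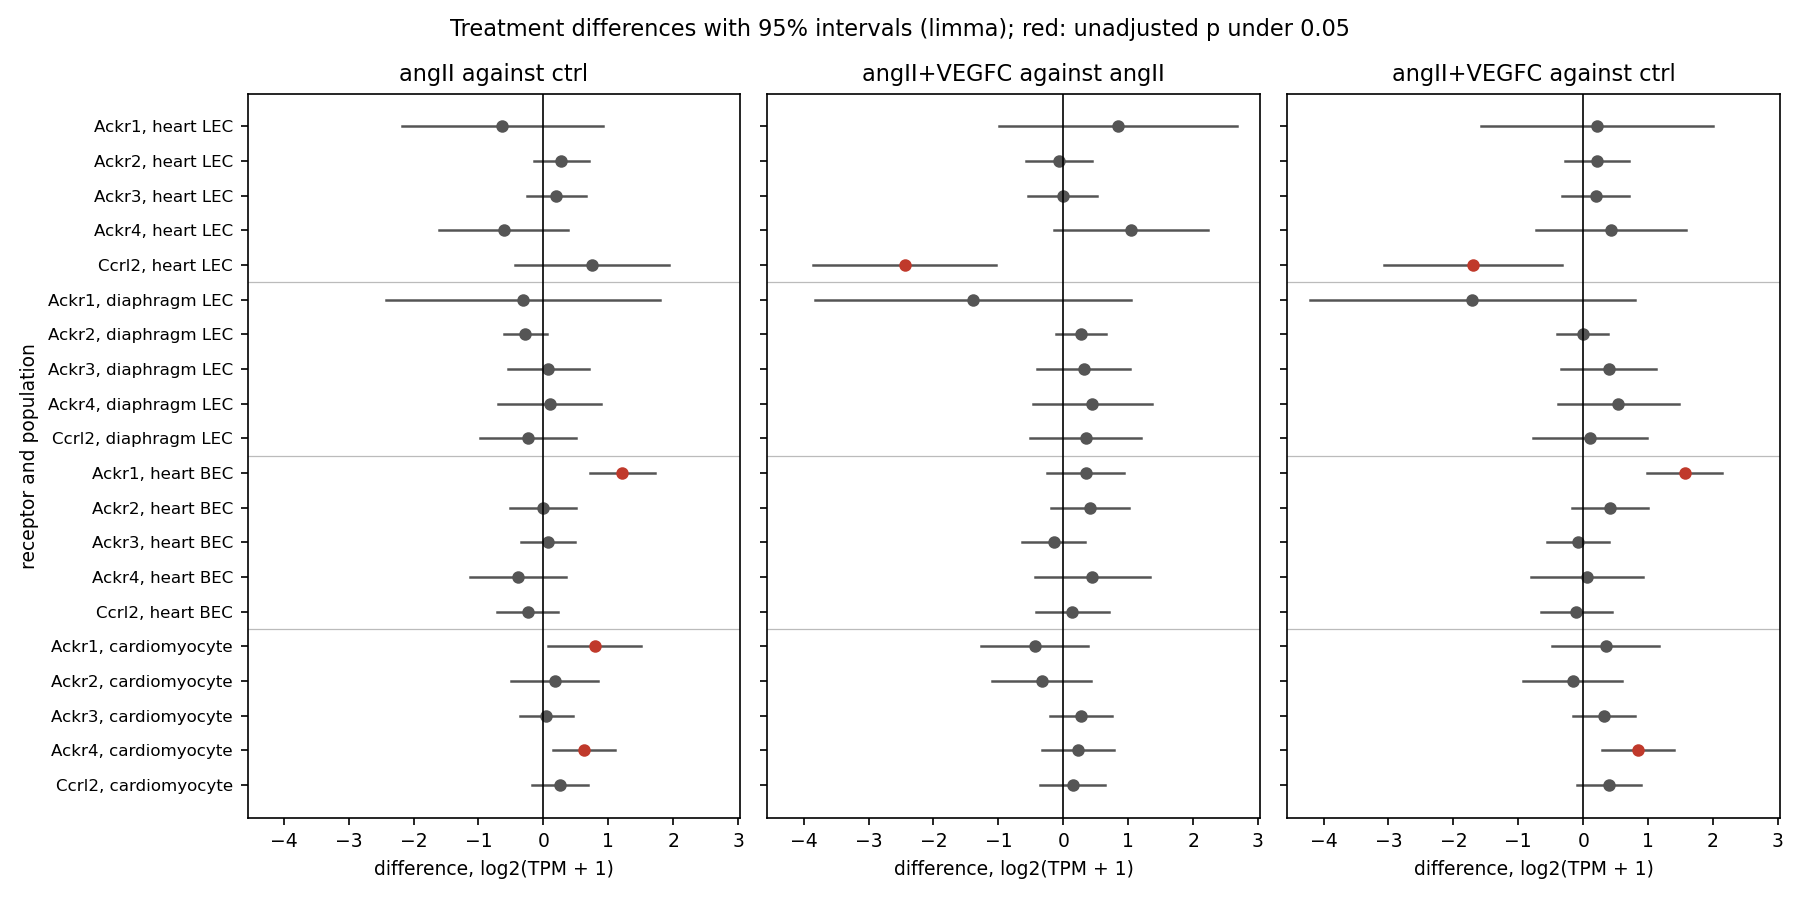
Differences between treatments for each receptor and population on the log2(TPM + 1) scale (x axis), with 95% intervals from limma, in 1 panel per comparison; red points have an unadjusted p under 0.05. Ackr1 in heart BECs is 1.22 higher in angII than in ctrl and 1.57 higher in angII+VEGFC than in ctrl, and Ccrl2 in heart LECs is 2.44 lower in angII+VEGFC than in angII.

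In heart BECs, Ackr1 was at 1.35, 2.21, 1.84 and 2.48 TPM in the ctrl mice. In the angII mice it was at 5.39, 6.76, 4.97, 5.35 and 6.40 TPM, and in the angII+VEGFC mice at 5.77, 8.74 and 9.61. Every library of either infused group was above every ctrl library, while the angII and angII+VEGFC groups overlapped. The group means were 1.97 ± 0.490 (SD, n = 4), 5.78 ± 0.765 (SD, n = 5) and 8.04 ± 2.02 TPM (SD, n = 3). Groups failed to overlap in 1.88% of all tested genes for angII against ctrl and in 4.93% for angII+VEGFC against ctrl. On the log2 scale the difference of angII from ctrl was 1.22 ± 0.23 (SE; limma adjusted p = 0.555, unadjusted p = 1.8e-04) and that of angII+VEGFC from ctrl 1.57 ± 0.27 (SE; adjusted p = 0.294, unadjusted p = 6.9e-05). These were the 6th and 5th smallest p-values among the 21281 genes tested, in comparisons where 5.4% and 5.51% of genes had an unadjusted p under 0.05 and 0 passed after adjustment. The angII+VEGFC group differed from angII by 0.35 ± 0.27 (SE; limma adjusted p = 1.00).

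Since no infused library overlapped with ctrl, the direction of the Ackr1 difference in BECs had to be the same in each sequencing batch. Its size was 1.37 in batch 1 and 1.04 in batch 2 for angII against ctrl. For angII+VEGFC against ctrl it was 1.92 and 1.34, with 1 to 3 libraries a side. Among the 6 venous markers, 0 had an adjusted p under 0.05 in heart BECs. No gene passed there, so this count cannot show that venous content stayed level. Vcam1, an adhesion molecule for leukocytes, was lower than in ctrl by 0.46 in angII (limma adjusted p = 0.914) and 0.57 in angII+VEGFC (adjusted p = 0.878). Vwf was lower by 0.32 and 0.36 (adjusted p = 0.937 and 0.935), and Nr2f2 was also lower in both. Selp, Sele and Aplnr were higher in both, with Selp, P-selectin, 0.31 higher in angII (adjusted p = 0.978). The summed level of the 6 venous markers was 844 to 1289 TPM in ctrl, 813 to 1041 in angII and 909 to 1021 in angII+VEGFC libraries, so the groups overlapped. The 6 blood endothelial markers summed to 6077 to 8350 TPM in ctrl, 7443 to 10853 in angII and 8572 to 9919 in angII+VEGFC libraries, and the 5 pericyte and smooth muscle markers to 250 to 314, 128 to 237 and 212 to 362. The 3 platelet markers (Pf4, Ppbp and Itga2b) summed to 61.8 to 148 TPM in ctrl, 41.6 to 69.1 in angII and 31.9 to 57.7 in angII+VEGFC libraries. The 5 cardiomyocyte markers summed to 168 to 377 TPM in ctrl, 97.7 to 163 in angII and 132 to 166 in angII+VEGFC libraries. Those of skeletal muscle summed to 31.8 to 59.7, 35.8 to 65.9 and 62.2 to 79.0. Between ctrl and angII+VEGFC, the sums of blood endothelial and skeletal muscle (higher) and of platelet and cardiomyocyte markers (lower) did not overlap. Between ctrl and angII, those of pericyte and smooth muscle and of cardiomyocyte markers (both lower) did not overlap. Red cell precursors also make Ackr1, and erythroid transcripts were abundant in heart BECs: the 6 erythroid markers summed to 5221 to 7980 TPM in ctrl, 5747 to 31327 in angII and 6948 to 12314 in angII+VEGFC libraries. Hbb-bs, a beta globin, was 0.76 higher in angII than in ctrl (limma adjusted p = 0.914). The other erythroid markers tested were higher by 0.64 (Hba-a1, adjusted p = 0.949) to 0.94 (Hbb-bt, adjusted p = 0.900). Over all libraries the erythroid sum had a median of 8538 TPM in heart BECs and 17991 in cardiomyocytes. Red cells were lysed before the sort but not in the cardiomyocyte pellet, so these medians do not bear on the difference within BECs. The part of other cells in the Ackr1 difference was not tested.

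**Figure D4:**
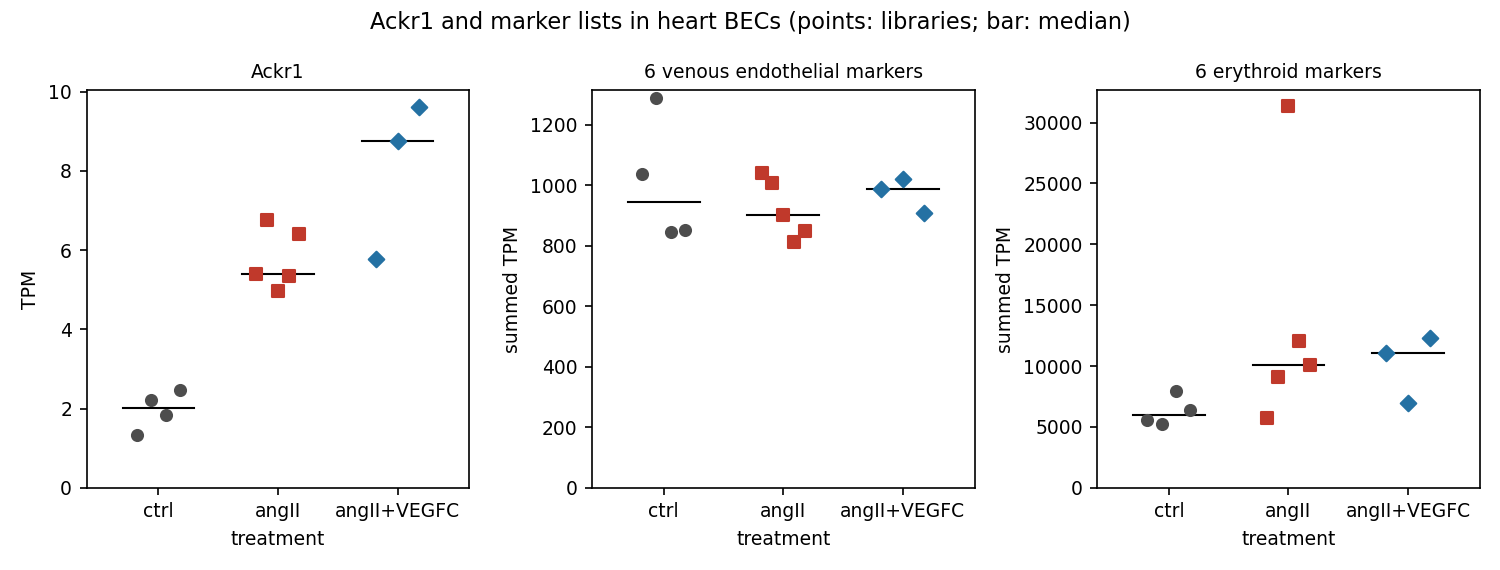
Ackr1 (TPM), the summed TPM of 6 venous endothelial markers and the summed TPM of 6 erythroid markers in the heart BEC libraries, by treatment along the x axis, with bars at the medians. Ackr1 does not overlap between ctrl (1.35 to 2.48 TPM) and the infused groups (4.97 to 9.61 TPM). Both marker sums shown overlap between all groups, while the sums of some other marker lists, given in the text, do not.

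Ackr1 in cardiomyocytes was at 0.0547 to 1.35 TPM in ctrl and 0.713 to 2.24 TPM in angII libraries, with overlap between the groups. The difference was 0.79 ± 0.34 (SE, log2 scale; limma adjusted p = 0.453), where 9.85% of all genes had an unadjusted p under 0.05. In LECs, many of whose libraries were listed at 0, the 95% intervals of the Ackr1 differences were wide, from -2.18 to 0.91 for angII against ctrl in heart LECs and from -2.43 to 1.79 in diaphragm LECs, and no direction can be read from them.

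In heart LECs, Ccrl2 was at 27.2, 7.37, 8.72 and 13.9 TPM in ctrl, at 35.3, 13.8, 18.1, 10.9 and 25.3 TPM in angII, and at 0, 7.57 and 13.9 TPM in angII+VEGFC libraries. The angII+VEGFC libraries were low, but their highest overlapped with both other groups. The difference of angII+VEGFC from angII was -2.44 ± 0.67 (SE, log2 scale; limma adjusted p = 0.413), and from ctrl -1.69 ± 0.65 (SE; adjusted p = 0.915); 10.8% and 4.94% of all genes had an unadjusted p under 0.05 in these comparisons. Without the library listed at 0, of mouse 2, these differences were -1.19 and -0.55, and without ctrl mouse 5 the difference from ctrl was -2.69. Within batches the difference from angII was -1.34 in batch 1 (1 library against 3) and -2.20 in batch 2 (2 against 2). Markers of blood endothelium, in which Ccrl2 was more abundant, were also lower in angII+VEGFC than in angII heart LECs, but overlapped between angII+VEGFC and ctrl. Their sum was 823 to 1145 TPM in ctrl, 1270 to 3208 in angII and 936 to 1215 in angII+VEGFC libraries. All 6 were at a median of 1 TPM or more in each group. The 6 erythroid markers summed to 7.24 to 2186 TPM in ctrl, 2063 to 6532 in angII and 12.95 to 575 in angII+VEGFC libraries, so that the infused groups did not overlap. The angII libraries also held more genes with at least 1 TPM (19957 to 25896) than the angII+VEGFC libraries (16756 to 18884), and the median difference of all genes was -0.37. The part of these in the Ccrl2 difference was not tested. In heart BECs, where Ccrl2 was at 44.9 ± 10.9, 40.1 ± 10.6 and 39.1 ± 13.2 TPM (SD) in ctrl, angII and angII+VEGFC, the same comparison gave 0.14 with a 95% interval of -0.43 to 0.71.

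In cardiomyocytes, Ackr4 was at 8.60, 7.12, 6.94 and 5.33 TPM in ctrl, at 9.69, 11.0, 15.6, 8.14 and 13.6 TPM in angII, and at 16.2, 14.0 and 9.64 TPM in angII+VEGFC libraries. Each angII+VEGFC library was above each ctrl library, and 1 angII library lay below the highest ctrl library. Groups failed to overlap for 14% of all tested genes in angII+VEGFC against ctrl. The difference from ctrl was 0.62 ± 0.22 (SE, log2 scale; limma adjusted p = 0.348) in angII and 0.85 ± 0.26 (SE; adjusted p = 0.160) in angII+VEGFC, where 12.9% of all genes had an unadjusted p under 0.05. The second value passed the adjusted threshold under 3 alternatives, with adjusted p-values of 0.0419 with 1 surrogate variable, 0.0234 with the number of genes as a covariate and 0.0376 without the angII+VEGFC library of mouse 8. The surrogate variable comes from the residuals of the same fit, so it leaves the difference unchanged and only takes up residual spread. The share of all genes passing under these alternatives is not given, so whether Ackr4 stood out there cannot be read. The 8 leukocyte markers summed to 511 to 665 TPM in ctrl, 753 to 1502 in angII and 767 to 1687 in angII+VEGFC libraries, and the 6 fibroblast markers to 2114 to 2936, 2637 to 4114 and 2987 to 4097. The Acad11 gene that overlaps Ackr4 was at 11.2 to 16.0 TPM in ctrl, 6.40 to 20.5 in angII and 7.01 to 8.01 in angII+VEGFC libraries, of which the last lie below every ctrl library. The part of these in the Ackr4 difference was not tested.

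**Figure D5:**
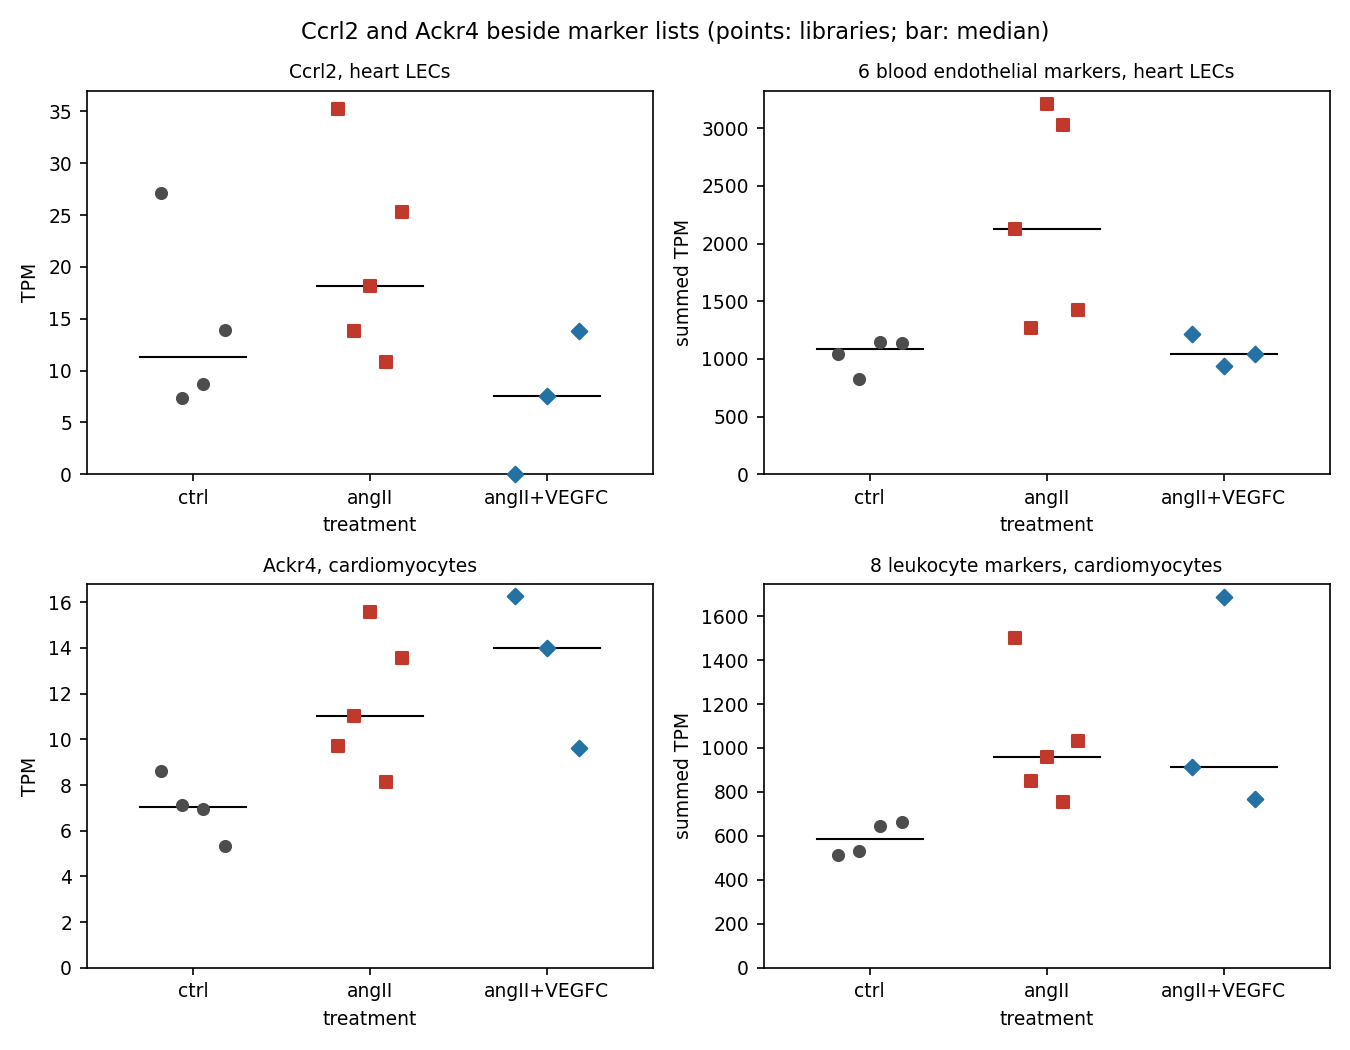
Ccrl2 with the summed 6 blood endothelial markers in heart LECs (upper panels) and Ackr4 with the summed 8 leukocyte markers in cardiomyocytes (lower panels), in TPM by treatment, with points for libraries and bars at the medians. The blood endothelial sum of heart LECs is highest in angII libraries (1270 to 3208 TPM), and the leukocyte sum of cardiomyocytes is higher in both infused groups than in ctrl (511 to 665 TPM).

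For Ackr2 and Ackr3, the abundant receptors of LECs, all differences between treatments lay within 95% intervals that included 0. In heart LECs, Ackr2 was at 120 ± 39.2 TPM (SD) in ctrl, 133 ± 21.9 in angII and 150 ± 28.7 in angII+VEGFC libraries, and Ackr3 at 283 ± 104, 305 ± 39.5 and 324 ± 49.9. For angII against ctrl the 95% interval of the log2 difference was -0.15 to 0.71 for Ackr2 and -0.25 to 0.65 for Ackr3. In diaphragm LECs, Ackr2 was at 273 ± 44.5, 222 ± 40.7 and 280 ± 19.7 TPM, with an interval of -0.61 to 0.06 for angII against ctrl and -0.11 to 0.66 for angII+VEGFC against angII. Ackr3 was at 446 ± 165, 473 ± 187 and 601 ± 53.9 TPM there, with intervals of -0.54 to 0.70 and -0.40 to 1.03. The angII library of mouse 4 had the lowest Ackr2 (162 TPM) and Ackr3 (194 TPM) of diaphragm LECs. Diaphragm angII libraries held 20062 to 23691 genes with at least 1 TPM. The ctrl libraries held 12924 to 18116 and the angII+VEGFC libraries 14963 to 18373, and the part of this was not tested. Both genes in the heart LEC comparison of angII+VEGFC against angII were near 0, at -0.07 (interval -0.58 to 0.44) for Ackr2 and -0.01 (-0.54 to 0.52) for Ackr3. In heart BECs, Ackr3 was at 254 ± 30.6, 265 ± 69.6 and 252 ± 55.1 TPM in the 3 groups. In heart LECs, Ackr4 had a larger SE for angII against ctrl on the log2 scale (0.47) than Ackr2 (0.20) and Ackr3 (0.21). It was at 44.7 ± 25.1, 31.4 ± 19.2 and 46.3 ± 16.2 TPM, with an interval of -1.61 to 0.39 for angII against ctrl.

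Whether the endothelial populations responded differently was tested by the interaction of population and treatment over the 36 endothelial libraries. Of the 5 receptors, 0 had an adjusted p under 0.05 in any of the 6 interactions, in which 0.00611% of all genes (angII against ctrl, heart against diaphragm LECs) or 0% passed. At an unadjusted p under 0.05, Ccrl2 passed in angII+VEGFC against angII, with a difference lower in heart LECs than in heart BECs by 1.95 ± 0.74 (SE, log2 scale; limma adjusted p = 0.768) and than in diaphragm LECs by 2.30 ± 0.74 (SE; adjusted p = 0.881). Of all genes, 6.43% and 4.88% did. Without mouse 2, whose heart LEC library was listed at 0, these were -0.85 and -0.63, and without mouse 8 the latter was -3.46. Ackr1 passed in the latter as well, at 2.78 ± 1.24 (SE; limma adjusted p = 0.988), with 5 of the 8 heart LEC libraries of these groups listed at 0.

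The partner genes were followed in the same 12 comparisons. Of 20 ligands, 16 to 18 were tested per population, and of 13 signalling receptors 7 to 10; all 8 internalisation and activity partners were. In all 3 lists 0 genes were higher and 0 lower at an adjusted p under 0.05. At an unadjusted p under 0.05, 13 of 210 ligand values were higher and 12 lower, 10 of 102 signalling receptor values were higher and 1 lower, and 9 of 96 partner values were higher and 3 lower, against 1.32% to 15.3% of all genes in either direction, depending on the comparison. In heart LECs, Cxcl12 was 0.98 ± 0.29 (SE, log2 scale; limma adjusted p = 0.264) higher in angII than in ctrl. Calcrl was 0.99 ± 0.33 higher (adjusted p = 0.309) and Ccl21a 0.37 ± 0.14 lower (adjusted p = 0.373) in the same comparison. The blood endothelial markers, whose sums in heart LECs are given above, were also higher in those angII libraries. Cxcl12 and Cxcl1 were more abundant in BECs, and the part of blood endothelium was not tested. In angII+VEGFC against angII heart LECs, Cxcl12 was 0.83, Cxcl1 0.74 and Ramp3 1.28 lower (limma adjusted p = 0.438, 0.442 and 0.423). Adm was 0.71 higher (adjusted p = 0.422), and 10.8% of all genes had an unadjusted p under 0.05. Ramp3 was higher in angII than in ctrl by 1.02 in heart LECs, 0.62 in heart BECs and 0.59 in cardiomyocytes (limma adjusted p = 0.387, 0.697 and 0.194). In cardiomyocytes, Ccl8, a monocyte chemokine that Ackr2 binds, was 2.02 ± 0.45 higher in angII+VEGFC than in ctrl (limma adjusted p = 0.0563), the smallest adjusted p of the 3 lists, and 1.98 ± 0.39 higher in angII (adjusted p = 0.0812). The leukocyte marker sums of both infused groups were also above those of ctrl, without overlap, as given with Ackr4; their part in the Ccl8 difference was not tested.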

How the data were processed

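RNA-seq of sorted LECs and BECs and of pelleted cardiomyocytes was used as the authors deposited it, in TPM. Per the labels and methods, cDNA was made with a SMART-Seq ultra low input kit and Nextera XT, and the authors aligned reads to GRCm38 with STAR 2.5.3a and quantified Ensembl genes with Salmon 0.12.0 in TPM. TPM keeps no counts, so depth, counting error and detection floors are unknown, and count-based tests were not used. Groups, mouse numbers, ages and batches came from the labels; the methods give an age in weeks, and the months of the labels were used. All 48 columns were used. The matrix holds 54752 genes, 54723 with a symbol.

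Genes that reached 1 TPM in 3 or more libraries of a population were fitted as log2(TPM + 1) with limma 3.58.1 (R 4.3.3, variance trend, age and, for endothelial cells, batch as covariates), with Benjamini-Hochberg adjustment over all genes and a threshold of 0.05. The interaction used 36 endothelial libraries without a block; libraries of 1 mouse share a number in the labels (correlation 0.13 within mice), so the mouse as a fixed block and as a random effect were alternatives. The groups of a comparison hold different mice, so no block applies there. Population differences in level were paired by mouse and not tested. Members and lists were chosen with earlier results of these data known. Named are the 5 members; genes of 3 partner lists (20 ligands, 13 signalling receptors, 8 internalisation partners) with a mean of 10 TPM or more in a population; and the 3 genes most like each member. Cxcr4, Ccr7, Ccr9, Ccr2 and Cmklr1 fall outside this rule and were named after their values were seen. Positions come from GENCODE annotation of GRCm38. Other alternatives were a pseudocount of 0.1 TPM, no filter, no covariates, 1 surrogate variable (first component of the residuals), the number of genes as a covariate, quantile normalization, only the 2 groups compared, and each library or mouse left out. The code was tested on simulated data. Figures were drawn with matplotlib 3.10.9 in Python 3.11.15.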

Additional observations from a re-analysis of the deposited data

Results flagged for a closer look

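In 2 of the 40 groups of 4 or 5 libraries tested, 1 library stood apart from the others of its group by Dixon's gap at the 95% level. Chance gives this in about 1 of 20 groups only where values are normally distributed, which TPM values with many at 0 are not. Ackr1 was at 55.4 TPM in the diaphragm LEC library of ctrl mouse 9, against 0.411, 5.43 and 0.751 TPM in the other ctrl libraries. That library also had the highest sums in its group of blood endothelial (874 TPM), venous endothelial (301 TPM), fibroblast (792 TPM), leukocyte (194 TPM) and pericyte and smooth muscle markers (466 TPM). Ackr1 was at 6.14 TPM in the heart LEC library of angII mouse 14, with the other angII libraries listed at 0. With all others at 0, any value above 0 is flagged, so this flag carries no information. The blood endothelial sum of 3208 TPM and the venous sum of 577 TPM of that library were the highest of the heart LEC libraries. The part of other cells in these values was not tested.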

How the results depend on the processing

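The number of receptors called stayed at 0 under the alternatives in all comparisons and interactions except angII+VEGFC against ctrl in cardiomyocytes. There Ackr4 made it 1 with 1 surrogate variable (0.85) and with the number of genes as a covariate (1.06), and 0 to 1 with each library left out. The share of all genes passing under these settings is not given. With the replicate block, the mouse as a fixed block or as a random effect, 0 receptors were called by the 6 interactions, and no call changed. Under the 19 alternatives, Ackr1 in heart BECs was at 1.11 to 1.55 for angII against ctrl (limma adjusted p 0.190 to 0.994). For angII+VEGFC against ctrl it was at 1.43 to 1.94 (0.0774 to 1.00). Its direction was largely fixed in advance, since neither the filter nor the surrogate variable changes an estimate. Groups without overlap also stay apart when 1 library is left out. Ccrl2 in heart LECs stayed lower in angII+VEGFC than in angII, at -3.85 to -1.19 (limma adjusted p 0.161 to 0.855). Ackr1 in cardiomyocytes, at 0.59 to 1.74 for angII against ctrl, was highest with a pseudocount of 0.1 TPM.

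Some differences turned sign or changed in size, with causes not tested. In heart LECs, angII+VEGFC against angII gave 0.17 for Ackr2 and 0.086 for Ackr3 without covariates, and 0.032 and 0.21 with only the 2 groups; with each library left out they ranged from -0.35 to 0.16 and from -0.23 to 0.21. In diaphragm LECs, Ackr3 with the number of genes as a covariate gave -0.42 for angII+VEGFC against angII, where the reported difference was 0.31. For angII against ctrl it gave 0.94, where the reported difference was 0.08 (limma adjusted p 1.00 with that covariate). The number of genes did not overlap there between angII and either other group, so that covariate partly follows treatment. With each library left out, the differences were -0.019 to 0.49 and -0.15 to 0.36 for the same comparisons in that order. Of the level differences between cardiomyocytes and heart BECs, Ackr1 moved to -2.24 with a pseudocount of 0.1 TPM. After quantile normalization Ackr2 moved to -0.44, Ackr3 to -1.37 and Ccrl2 to 0.76. The Ccrl2 difference thus turned sign and exceeded the SD of 0.58 of its paired differences. Ackr4 was at -0.32 in ctrl mice alone, and Ccrl2 at -0.15 to 0.0032 with each mouse left out. With 3 to 5 libraries a group and unknown depth, a change of low genes such as Ackr1 in LECs could not be resolved.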
